A study of Mus musculus with 24 samples.

Results

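The IL-1 family and inflammasome genes are the transcripts of an inflammatory pathway of macrophages and microglia, the resident macrophages of the brain. They were taken here as 10 named genes, Il1a, Il1b, Il1rn, Il18, Nlrp3, Casp1, Casp4, Pycard, Gsdmd and Il1rap, found by symbol among the 54838 gene identifiers of a count table. All 10 had an identifier, and 9 were abundant enough to be tested among 13116 genes. Pycard was not.

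The cells were SIM-A9, a spontaneously immortalized mouse microglial cell line, and all groups used this 1 line. Each of 8 groups had 3 poly-A RNA libraries. Cells stood for 2 h in serum-free medium, received 30 uL of a 10x sample on 270 uL of medium in a 48-well plate, and gave their RNA 2 h later. The groups were an untreated control, lipopolysaccharide (LPS, an outer membrane component of Gram-negative bacteria), (GT)6 SWCNT, carboxylated SWCNT, Fura-2, DiBASC2, Di2ANEPEQ and AAV. SWCNT are single-walled carbon nanotubes, (GT)6 is the name of a short DNA that coats them, and carboxylated nanotubes carry acid groups. Fura-2 is a calcium indicator, DiBASC2 and Di2ANEPEQ are dyes labelled with several spellings, and AAV is adeno-associated virus. Doses are not given in the sources used here, so the treatments stand side by side as applied.

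Interleukin-1 alpha and beta, the products of Il1a and Il1b, act on the same receptor, whose signal needs the accessory chain encoded by Il1rap. The antagonist encoded by Il1rn occupies that receptor without signalling. Interleukin-1 beta and interleukin-18 are made as precursors that caspase-1 cleaves inside an inflammasome, a complex of a sensor such as NLRP3, the adaptor ASC (Pycard) and caspase-1. Caspase-1 and caspase-11, which mouse Casp4 encodes, also cleave gasdermin D (Gsdmd), whose fragment makes pores in the cell membrane. In macrophages, transcription of Il1b and Nlrp3 after Toll-like receptor signalling is known as priming. Transcript levels measure that step and not the cleavage or release of the proteins.

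The promoters of the 5 genes that changed in more than 1 treatment are shown, since these are the genes whose transcript levels the results turn on. The sequences are from RefSeq on GRCm38.p6, read 5′ to 3′ on the gene's strand, and run from 250 bases before the transcript start to the last base before any annotated transcript of the gene. Capitals mark matches on either strand to an NF-kB consensus, to AP-1 (TGANTCA), to C/EBP (TTGCNNAA) or to a TATA box (TATAAA). The Il1a stretch is chr2:129309973-129310222 and the Il1b stretch chr2:129371140-129371389, both on the minus strand. The Il1rn stretch is chr2:24336610-24336852, that of Nlrp3 chr11:59541319-59541567 and that of Casp4 chr9:5308599-5308827, all on the plus strand.
Il1a: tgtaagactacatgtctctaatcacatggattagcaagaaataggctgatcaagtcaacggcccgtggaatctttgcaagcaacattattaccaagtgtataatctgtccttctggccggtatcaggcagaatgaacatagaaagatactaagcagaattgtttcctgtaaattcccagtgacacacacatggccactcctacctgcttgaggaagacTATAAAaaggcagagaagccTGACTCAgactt
Il1b: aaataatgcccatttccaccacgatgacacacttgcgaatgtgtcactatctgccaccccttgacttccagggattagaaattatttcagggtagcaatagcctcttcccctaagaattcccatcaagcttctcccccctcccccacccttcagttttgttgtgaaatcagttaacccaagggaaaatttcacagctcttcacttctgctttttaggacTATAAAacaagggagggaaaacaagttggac
Il1rn: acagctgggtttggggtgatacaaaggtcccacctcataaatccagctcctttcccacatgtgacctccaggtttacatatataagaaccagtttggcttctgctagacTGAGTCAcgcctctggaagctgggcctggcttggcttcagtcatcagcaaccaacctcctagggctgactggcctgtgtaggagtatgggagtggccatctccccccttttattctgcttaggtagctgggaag
Nlrp3: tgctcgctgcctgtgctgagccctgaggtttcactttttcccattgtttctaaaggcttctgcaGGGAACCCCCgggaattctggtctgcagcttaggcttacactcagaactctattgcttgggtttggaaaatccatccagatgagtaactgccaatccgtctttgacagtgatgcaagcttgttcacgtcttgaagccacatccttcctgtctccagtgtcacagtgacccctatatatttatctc
Casp4: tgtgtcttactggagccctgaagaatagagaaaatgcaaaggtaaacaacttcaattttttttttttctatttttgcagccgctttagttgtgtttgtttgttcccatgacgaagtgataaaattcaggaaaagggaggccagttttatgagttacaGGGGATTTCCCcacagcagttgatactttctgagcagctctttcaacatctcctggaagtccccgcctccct

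Il1a and Il1b both had a TATA box, from -32 to -27 in Il1a and from -31 to -26 in Il1b, where -1 is the base before the transcript start. TATAAA was found on either strand in 13.6% of 32851 promoter windows of 300 bases. An AP-1 match lay from -12 to -6 in Il1a and from -141 to -135 in Il1rn, against 7.81% of all windows with one. The NF-kB consensus matched once in Nlrp3, from -186 to -177 on the other strand, and as an overlapping pair from -93 to -83 in Casp4, against 4.51% of windows. No C/EBP match fell in these 5 stretches, against 10.8% of windows. Of the other motifs searched on both strands, PU.1 (GAGGAA, in 28.3% of windows) matched Il1a from -41 to -36, and ISRE (GAAA and GAAA with 2 bases of any kind between, in 3.44%) matched none of the 5. The matches in Casp4 overlap each other, and none overlaps another motif. Il1rn, Nlrp3 and Casp4 have further annotated starts, whose windows are not printed. These matches describe the letters only. Windows were found for 9 of the 10 genes.

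On GENCODE M21 (GRCm38) the 3 genes of ligands and antagonist on chromosome 2 are Il1rn (ENSMUSG00000026981.15, chr2:24336853-24351494), Il1b (ENSMUSG00000027398.13, chr2:129364570-129371139) and Il1a (ENSMUSG00000027399.1, chr2:129299610-129309972). Il18 (ENSMUSG00000039217.13, chr9:50554827-50581840), Casp1 (ENSMUSG00000025888.5, chr9:5298517-5307265) and Casp4 (ENSMUSG00000033538.13, chr9:5308828-5336783) are on chromosome 9, the latter pair side by side. Nlrp3 (ENSMUSG00000032691.14) is at chr11:59541568-59566956 and Gsdmd (ENSMUSG00000022575.5) at chr15:75862327-75867408. Pycard (ENSMUSG00000030793.4) is at chr7:127989708-127993867 and Il1rap (ENSMUSG00000022514.14) at chr16:26581704-26730117. Counts are given per gene, and which features were counted is not given in the sources used here.

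Libraries held between 17364272 and 29259221 counts. All 12 of a list of microglia and macrophage markers passed the filter, and their summed level stayed between 2380 and 2638 CPM (counts scaled to a common library size) over the 24 libraries. The general macrophage genes were high, with Cd68 at a mean of 848 CPM and Csf1r at 516 CPM. The markers of brain microglia were low, with P2ry12 at 2.28 CPM and Tmem119 at 3.79 CPM. The neuronal marker Syt1, the oligodendrocyte marker Mog and the endothelial marker Cldn5 had 0 counts in every library, while the endothelial gene Kdr was present at a mean of 124 CPM. The summed level of the 4 endothelial markers was 128 to 138 CPM in control. It was 90.8 to 102 CPM in LPS and 102 to 109 CPM in (GT)6 SWCNT. Nearly all of this sum was Kdr, which passed the test as lower in LPS and in (GT)6 SWCNT. Pecam1 had a mean of only 0.149 CPM and Cdh5 of 0.130 CPM. Of the 12 macrophage markers, 2 were higher and 3 lower in LPS, 4 higher and 3 lower in (GT)6 SWCNT, and 1 higher and 2 lower in carboxylated SWCNT. Over all tested genes LPS had 13.8% higher and 14.5% lower, (GT)6 SWCNT had 9.90% higher and 10.5% lower, and carboxylated SWCNT had 9.39% higher and 10.6% lower. The part of these differences in the results was not tested. In bulk RNA, fewer cells of a type and less RNA per cell cannot be told apart.

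In untreated cells the antagonist gene far exceeded the ligand genes. Per kilobase of exon, Il1rn stood at 105 ± 14.5 CPM (SD, n = 3), rank 441 of 13112 genes with a length. Gsdmd was at 31.2 CPM per kb, Casp1 at 26 and Nlrp3 at 23.6. Il1a was at 5.96 ± 0.819, Il1b at 4.78 ± 0.455, Casp4 at 4.28, Il18 at 3.06 and Il1rap at 0.783 CPM per kb. Il1a ranked 6370 and Il1b 6988 on this scale.

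Across the 8 groups, 5 of the 9 tested genes moved and the others held a narrow range. The highest group mean was 76.9 times the lowest for Il1b, 43.5 times for Il1a, 12.1 times for Nlrp3, 6.88 times for Il1rn and 2.80 times for Casp4. For Casp1, Gsdmd, Il18 and Il1rap that ratio lay between 1.12 and 1.32. LPS raised 5 of the 9 tested genes (Il1a, Il1b, Il1rn, Nlrp3, Casp4) and lowered 1 (Il1rap), at an adjusted p under 0.05, where 13.8% of all tested genes rose and 14.5% fell. (GT)6 SWCNT raised the same 5 and lowered none of the 9, where 9.90% rose and 10.5% fell. Carboxylated SWCNT raised 4 (all of those but Casp4) and lowered none of the 9, where 9.39% rose and 10.6% fell. DiBASC2 lowered those same 5 and raised none, where 3.64% of all genes fell and 1.82% rose. The median log2 fold change of the 9 tested genes was 1.17 in LPS, 0.28 in (GT)6 SWCNT, 0.01 in carboxylated SWCNT and -0.31 in DiBASC2, against -0.00841, -0.0171, -0.00156 and -0.00178 over all tested genes. All p-values are Benjamini-Hochberg adjusted over all tested genes, from edgeR's quasi-likelihood test. Nothing in the labels says that the 3 libraries of a group came from separate cultures, so the p-values measure only the spread between these libraries, which may be technical.

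**Figure D1:**
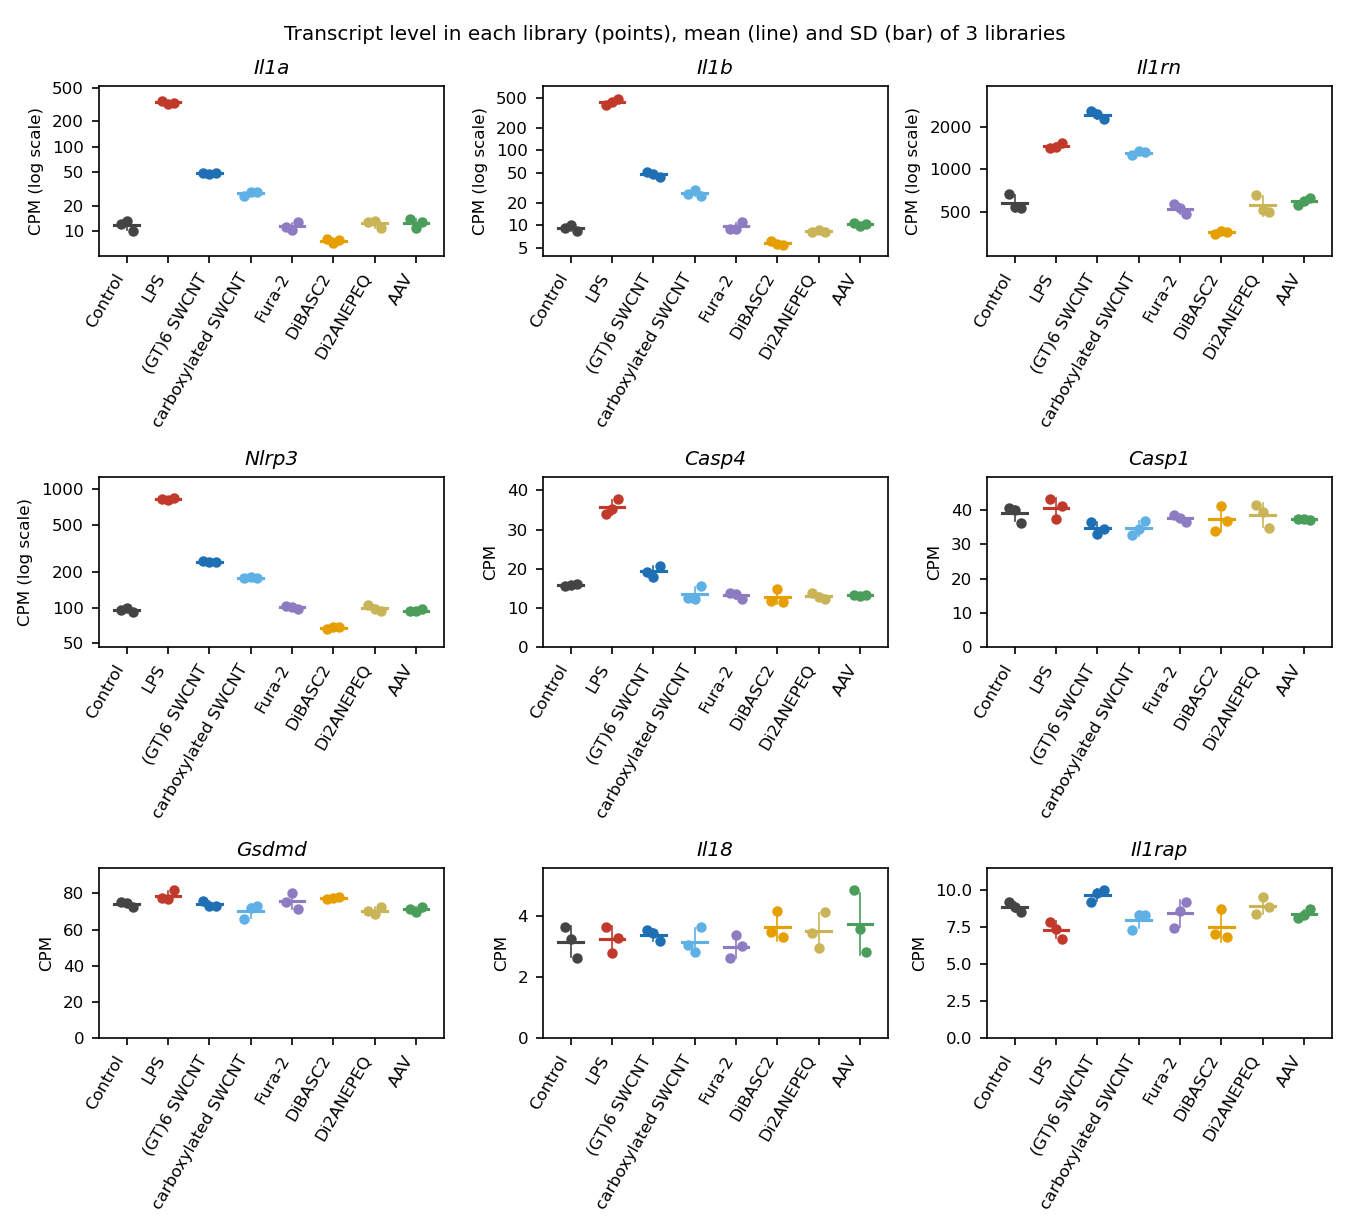
CPM of 9 genes (y axis, logarithmic for Il1a, Il1b, Il1rn and Nlrp3) in each library of the 8 groups (x axis), with a point per library, a line at the mean and a bar for the SD of 3 libraries. LPS holds the highest Il1a, Il1b, Nlrp3 and Casp4 levels, (GT)6 SWCNT the highest Il1rn levels (2263 to 2611 CPM), and DiBASC2 the lowest of Il1a, Il1b, Il1rn and Nlrp3.

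The ligand gene Il1b, whose precursor protein is the main substrate of caspase-1 in primed macrophages, had 9.18, 9.96 and 8.22 CPM in the control libraries. It had 407, 441 and 482 CPM in LPS. The nanotube groups lay between those levels, at 50.9, 48.0 and 43.5 CPM in (GT)6 SWCNT and 25.9, 29 and 24.4 CPM in carboxylated SWCNT. None of these 4 groups overlapped another. On the log2 scale the rise over control was 5.59 ± 0.07 (SE, adjusted p = 3.07e-37) in LPS, 2.38 ± 0.08 (adjusted p = 8.12e-23) in (GT)6 SWCNT and 1.52 ± 0.09 (adjusted p = 1.20e-15) in carboxylated SWCNT.

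DiBASC2 was the one group with less Il1b than control in every library, at 6.15, 5.67 and 5.48 CPM, a log2 fold change of -0.67 ± 0.11 (adjusted p = 0.000192). Fura-2 had 8.91, 9.0 and 10.9 CPM, Di2ANEPEQ 8.14, 8.54 and 8.18 CPM, and AAV 10.8, 9.84 and 10.3 CPM. These 3 groups lay near the control libraries, and none of their differences passed the test. Il1b shares 25 bases with the antisense gene Il1bos, which had 16 to 22 counts per LPS library and 0 to 8 elsewhere. Whether counting used strand is not given in the sources used here.

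Il1a, the other ligand gene, whose product is active without caspase-1, followed the same order. Its libraries had 12.1, 13.1 and 9.99 CPM in control, 349, 321 and 333 CPM in LPS, 49.1, 47.3 and 48.6 CPM in (GT)6 SWCNT, and 25.7, 29.2 and 29.1 CPM in carboxylated SWCNT. These groups did not overlap either. DiBASC2 was lowest at 8.02, 7.14 and 7.87 CPM. The log2 fold change was 4.82 ± 0.07 in LPS (adjusted p = 3.92e-35), 2.03 ± 0.08 in (GT)6 SWCNT (adjusted p = 3.72e-21), 1.24 ± 0.09 in carboxylated SWCNT (adjusted p = 1.15e-13) and -0.63 ± 0.11 in DiBASC2 (adjusted p = 0.000138). AAV, Di2ANEPEQ, control and Fura-2 overlapped their neighbours in the order of levels, between 9.99 and 13.7 CPM. Il1a shares 222 bases with Gm14023 on the other strand, which had at most 15 counts in a library.

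Il1rn, the receptor antagonist gene, had a different order, with its highest level under (GT)6 SWCNT. The control libraries had 672, 539 and 529 CPM, and LPS had 1421, 1432 and 1545 CPM. (GT)6 SWCNT had 2611, 2476 and 2263 CPM and carboxylated SWCNT 1259, 1346 and 1326 CPM. Every (GT)6 SWCNT library exceeded every LPS library, and every LPS library exceeded every carboxylated SWCNT library. The log2 fold change over control was 2.08 ± 0.08 in (GT)6 SWCNT (adjusted p = 5.25e-22), 1.34 ± 0.08 in LPS (adjusted p = 4.20e-17) and 1.18 ± 0.08 in carboxylated SWCNT (adjusted p = 1.75e-14). DiBASC2 again had the least, 344, 363 and 360 CPM, at -0.70 ± 0.08 (adjusted p = 4.90e-08).

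Il18, the gene of the second caspase-1 substrate among the cytokines, stayed low in all groups. Its libraries ranged from 2.62 to 4.84 CPM, with a control mean of 3.16 ± 0.509 and an LPS mean of 3.23 ± 0.430 CPM (SD, n = 3). All groups overlapped with control. No contrast passed the test, with log2 fold changes against control from -0.09 to 0.25. Their standard error was near 0.18, so changes of this size, or somewhat larger, could have gone undetected.

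Nlrp3, the sensor gene, rose in the same treatments as the ligands. Control libraries had 95, 99.7 and 92.5 CPM, LPS 825, 800 and 840 CPM, (GT)6 SWCNT 248, 243 and 242 CPM, and carboxylated SWCNT 177, 183 and 179 CPM. DiBASC2 had 66.3, 68.2 and 69.2 CPM, below each control library. The log2 fold changes were 3.10 ± 0.04 (adjusted p = 3.07e-37), 1.35 ± 0.04 (adjusted p = 1.26e-24), 0.90 ± 0.04 (adjusted p = 1.52e-18) and -0.50 ± 0.04 (adjusted p = 4.73e-10) in the same order of treatments. Fura-2, Di2ANEPEQ and AAV stayed between 92.9 and 106 CPM and overlapped control. Per kilobase, Nlrp3 moved from rank 2383 in control to rank 240 in LPS.

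Of the caspase genes, Casp4 rose and Casp1 did not pass the test in any treatment against control. Casp4 (caspase-11, a sensor of LPS inside the cell) had 15.6, 16.0 and 16.0 CPM in control, 34, 35.1 and 37.7 CPM in LPS, and 19.3, 17.9 and 20.7 CPM in (GT)6 SWCNT. Its log2 fold change was 1.17 ± 0.08 in LPS (adjusted p = 3.20e-14) and 0.28 ± 0.09 in (GT)6 SWCNT (adjusted p = 0.0230), and the latter call was lost without (GT)6 SWCNT replicate 1 (adjusted p = 0.0552) or replicate 3 (adjusted p = 0.0829). In 14 of the 15 libraries of carboxylated SWCNT, DiBASC2, Di2ANEPEQ, Fura-2 and AAV, Casp4 was below the lowest control library. These 5 comparisons share the same 3 control libraries. Of the 5, only DiBASC2 passed the test, with 11.9, 14.8 and 11.5 CPM and a log2 fold change of -0.31 ± 0.09 (adjusted p = 0.0376). That call was lost when any of the 6 libraries but DiBASC2 replicate 2 was left out, with an adjusted p of up to 0.207. It was also lost with upper-quartile scaling, with a replicate block and with only the 2 groups fitted (adjusted p up to 0.0683). Carboxylated SWCNT, at 12.6, 12.3 and 15.7 CPM, missed the threshold at -0.23 ± 0.09 (adjusted p = 0.0831) and passed it without its replicate 3, at -0.33 (adjusted p = 0.0138).

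Casp1, the protease of the inflammasome, ranged from 32.6 to 43.1 CPM over all libraries. It had 40.6, 40.1 and 36.3 CPM in control, 43.1, 37.3 and 41.2 CPM in LPS, 36.6, 33 and 34.5 CPM in (GT)6 SWCNT, and 32.6, 34.6 and 36.8 CPM in carboxylated SWCNT. LPS overlapped control, with a log2 fold change of 0.05 ± 0.07 (adjusted p = 0.622). Both nanotube groups had a log2 fold change of -0.17 ± 0.07 against control, with adjusted p = 0.0910 for (GT)6 and 0.0769 for carboxylated SWCNT.

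Gsdmd, the gene of the pore-forming gasdermin, lay between 65.7 and 81.8 CPM in all libraries. Control had 75.3, 74.7 and 72.4 CPM and LPS 77.3, 76.7 and 81.8 CPM. The LPS libraries were all above the control libraries, yet the log2 fold change of 0.08 ± 0.05 did not pass the test (adjusted p = 0.184). No other treatment passed it either, with log2 fold changes against control from -0.08 to 0.08.

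Pycard, which encodes the adaptor between NLRP3 and caspase-1, was close to absent from these libraries. It had 3 counts among 566082486, namely 1 each in a library of LPS, Fura-2 and Di2ANEPEQ, and 0 in the other 21 libraries. The limit that a count of 0 allows, 3 counts, is 0.102 to 0.176 CPM depending on the library. This limit and the floors used here cover counting error only. The gene shares 485 bases with Gm45205 on the other strand, which had at most 7 counts in a library.

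Il1rap, the accessory chain of the interleukin-1 receptor, was low, and its largest differences were between treatments. It had 9.23, 8.89 and 8.54 CPM in control, 7.88, 7.37 and 6.73 CPM in LPS, 9.24, 9.80 and 10.0 CPM in (GT)6 SWCNT, and 7.36, 8.37 and 8.31 CPM in carboxylated SWCNT. LPS lay below control in every library, at a log2 fold change of -0.28 ± 0.11 (adjusted p = 0.0470). The call was lost when any of the 6 libraries but LPS replicate 1 was left out, with an adjusted p of up to 0.225. It was also lost in 4 other settings (adjusted p up to 0.0981). These were DESeq2 size factors in edgeR, no low-count filter, a fit of only the 2 groups, and the DESeq2 test. (GT)6 SWCNT exceeded LPS by 0.40 ± 0.11 (adjusted p = 0.00424).

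**Figure D2:**
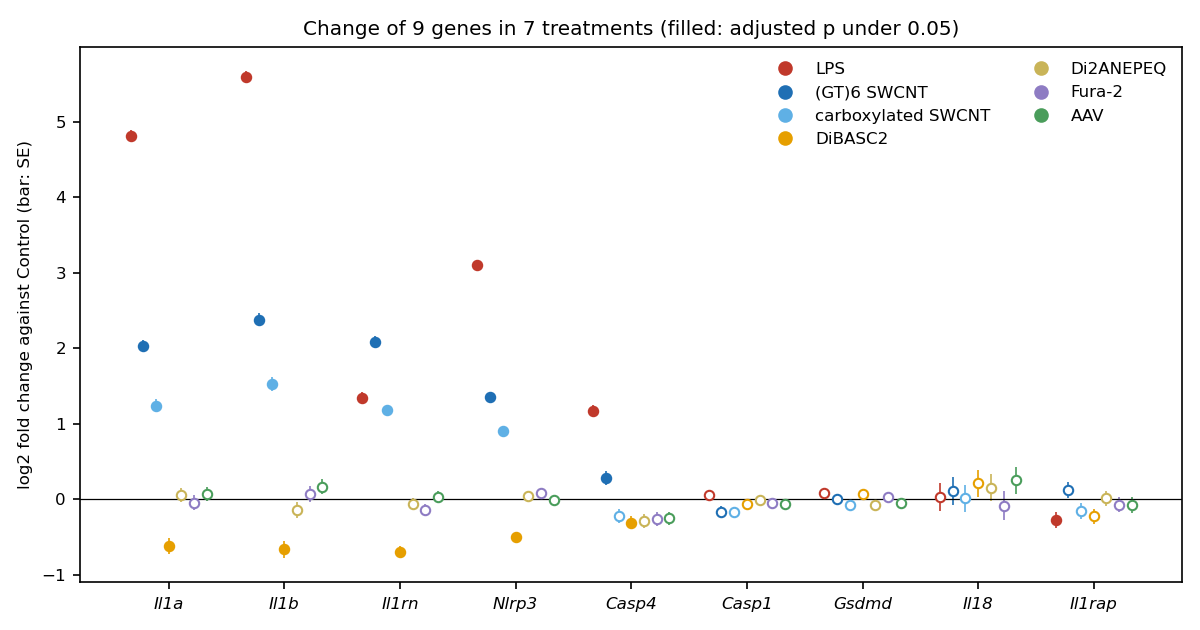
Log2 fold change against control (y axis) of 9 genes (x axis) in 7 treatments (colours), with the standard error as a bar and filled points where the adjusted p is under 0.05. Il1b rises by 5.59 in LPS, 2.38 in (GT)6 SWCNT and 1.52 in carboxylated SWCNT, Il1rn is highest in (GT)6 SWCNT, and the filled DiBASC2 points lie below 0.

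The nanotube groups were compared with LPS directly, with no control libraries in the contrast. (GT)6 SWCNT was below LPS in 5 of the 9 tested genes and above it in 2, where 11.9% of all tested genes were lower and 9.63% higher. On the log2 scale Il1b differed by -3.22 ± 0.06 (adjusted p = 3.27e-32). Il1a differed by -2.79 ± 0.06, Nlrp3 by -1.75 ± 0.04, Casp4 by -0.89 ± 0.08 and Casp1 by -0.22 ± 0.07 (adjusted p = 0.0181), the last of which was lost without LPS replicate 1, LPS replicate 3 or (GT)6 SWCNT replicate 2 (adjusted p up to 0.112). Il1rn was higher than in LPS, by 0.74 ± 0.08 (adjusted p = 4.37e-10), and so was Il1rap.

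Carboxylated SWCNT was below LPS in 6 of the 9 tested genes and above it in none of them, where 19.7% of all genes were lower and 18.1% higher. Il1b differed by -4.07 ± 0.06 (adjusted p = 7.49e-35), Il1a by -3.58 ± 0.07, Nlrp3 by -2.20 ± 0.04 and Casp4 by -1.39 ± 0.08. Casp1 differed by -0.23 ± 0.07 (adjusted p = 0.00838) and Gsdmd by -0.16 ± 0.05 (adjusted p = 0.00450). Both of these small differences were lost without carboxylated SWCNT replicate 1, at adjusted p = 0.0615 for Casp1 and 0.0644 for Gsdmd. Il1rn differed by -0.16 ± 0.08 and did not pass (adjusted p = 0.0888), but passed when only the 2 groups were fitted (adjusted p = 0.0135) and without a low-count filter (adjusted p = 0.000329).

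(GT)6 SWCNT exceeded carboxylated SWCNT in 6 of the 9 tested genes and was below it in none of them, where 11.9% of all genes were higher and 9.48% lower. Il1rn differed most, by 0.90 ± 0.08 (adjusted p = 3.70e-11), followed by Il1b at 0.85 ± 0.07 (adjusted p = 1.51e-11) and Il1a at 0.79 ± 0.07 (adjusted p = 1.43e-10). Casp4 differed by 0.50 ± 0.09 (adjusted p = 7.09e-05) and Nlrp3 by 0.44 ± 0.04 (adjusted p = 8.84e-11). Il1rap passed narrowly, at 0.27 ± 0.10 (adjusted p = 0.0493), and lost the call without any library but carboxylated SWCNT replicate 2 (adjusted p up to 0.209). The Il1rap call was also lost in 5 other settings (adjusted p up to 0.0984). These were upper-quartile scaling, no low-count filter, a replicate block, a fit of only the 2 groups, and DESeq2. The nanotube preparations differ in their surface, DNA-coated or with acid groups, and their doses were not compared here.

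**Figure D3:**
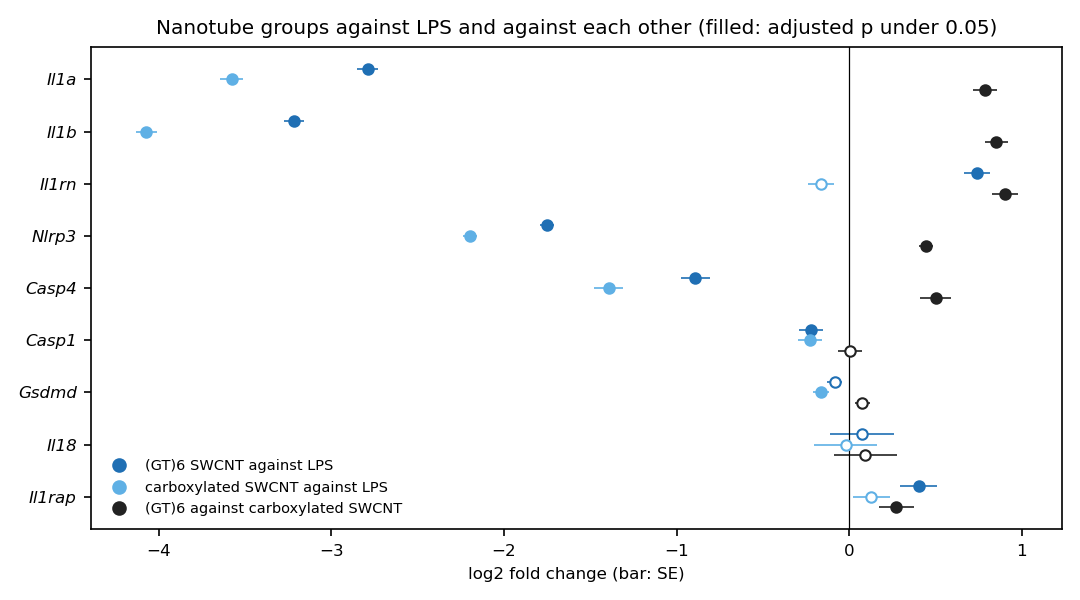
Log2 fold change (x axis) of 9 genes (y axis) for each nanotube group against LPS and for (GT)6 against carboxylated SWCNT, with the standard error as a bar and filled points where the adjusted p is under 0.05. Il1b lies at -3.22 and -4.07 against LPS, while Il1rn lies at 0.74 for (GT)6 SWCNT and at -0.16 for carboxylated SWCNT.

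On the linear CPM scale, the size of the nanotube effect relative to LPS differed from gene to gene. The rise of CPM above the control mean in (GT)6 SWCNT was 8.83% of the LPS rise for Il1b (7.93% to 9.62% over the 3 libraries), 11.3% for Il1a (11% to 11.6%) and 20.4% for Nlrp3 (20.1% to 21%). For Il1rn it was 211% of the LPS rise (190% to 229%). In carboxylated SWCNT the corresponding shares were 3.99% for Il1b, 5.05% for Il1a, 11.5% for Nlrp3 and 82.4% for Il1rn. For Casp4 the share was 17.4% in (GT)6 SWCNT (10.2% to 24.7%) and -11.8% in carboxylated SWCNT (-17.9% to -0.876%), where its level was below control. The library ranges of these shares for Il1rn did not overlap those of the ligand genes in either group. These shares set each library against the same control and LPS means and were not tested. They also depend on the scale. The log2 fold changes in (GT)6 SWCNT and LPS were 2.38 and 5.59 for Il1b, 2.03 and 4.82 for Il1a, and 1.35 and 3.10 for Nlrp3. Those of the ligand genes and Nlrp3 thus stood in similar proportion. Il1rn (2.08 and 1.34) and Casp4 (0.28 and 1.17) departed from it.

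The balance of antagonist and ligand transcripts shows the difference between Il1rn and Il1b directly. The ratio of Il1rn to Il1b, both in CPM per kb, was 25.2, 18.6 and 22.1 in the control libraries. It was 1.20, 1.12 and 1.11 in LPS. In (GT)6 SWCNT, where both genes rose, it was 17.7, 17.8 and 17.9, and in carboxylated SWCNT it was 16.7, 16.0 and 18.7. The nanotube libraries thus lay far above the LPS libraries, at or just below the control range. In DiBASC2, where both genes fell, the ratio was 19.3, 22.1 and 22.7, within the control range.

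The mean log2 ratio fell from 4.45 ± 0.22 in control to 0.19 ± 0.07 in LPS (SD, n = 3), which was the largest difference of the 10 comparisons of this ratio. A two-sided exact permutation test gave p = 0.1, the smallest that 3 against 3 libraries allow, and 0.25 after adjustment over the 10 comparisons. (GT)6 SWCNT, at 4.15 ± 0.01, gave the same exact p = 0.1 against control, and carboxylated SWCNT, at 4.10 ± 0.12, gave p = 0.2. With the length of the longest transcript in place of all exons, the means were 5.07 in control and 0.81 in LPS.

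**Figure D4:**
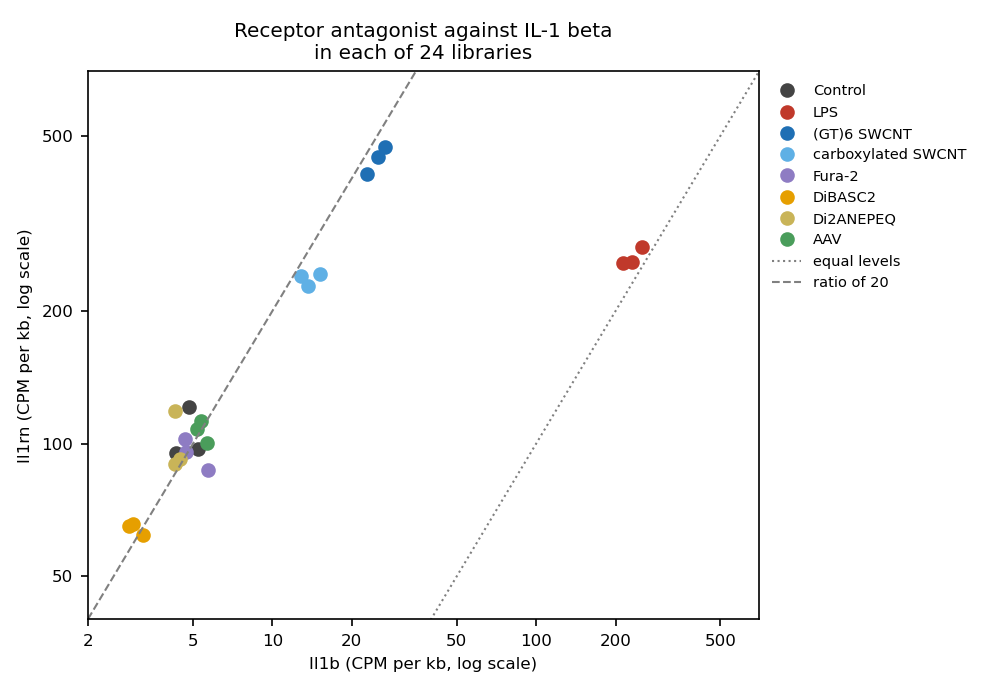
Il1rn (y axis) against Il1b (x axis), both in CPM per kb on logarithmic axes, with a point per library coloured by group, a dotted line of equal levels and a dashed line of a constant ratio. The LPS libraries lie near equal levels (ratios of 1.11 to 1.20), and the other 21 libraries lie along the constant ratio, from DiBASC2 at the bottom to (GT)6 SWCNT at the top.

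DiBASC2 was the treatment that lowered these genes. Its 5 calls were Il1rn (-0.70), Il1b (-0.67), Il1a (-0.63), Nlrp3 (-0.50) and Casp4 (-0.31), all log2 fold changes against control. For the first 4, every DiBASC2 library was below every control library and below every library of the other 6 treatments. Casp1, Gsdmd, Il18 and Il1rap had log2 fold changes of -0.06, 0.06, 0.21 and -0.23 and did not pass. The treatment field of these 3 libraries carries 3 different names, so it is the group's title that joins them.

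Fura-2, Di2ANEPEQ and AAV gave 0 calls among the 9 tested genes in edgeR and 0 in DESeq2. Over all tested genes 0.252%, 3.08% and 5.00% were called in these treatments. At an unadjusted p under 0.05 edgeR gave 1 gene in each, Casp4, with log2 fold changes of -0.26 in Fura-2, -0.29 in Di2ANEPEQ and -0.26 in AAV. The 9 log2 fold changes ran from -0.26 to 0.08 in Fura-2, from -0.29 to 0.15 in Di2ANEPEQ and from -0.26 to 0.25 in AAV.

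The log2 CPM of Il1a, Il1b and Nlrp3 followed each other closely over the 24 libraries, while the genes most like Il1rn and Casp4 were outside the 10. For Il1b the most alike genes were Il1a (Pearson r = 0.997), Pim1 (r = 0.997) and Nlrp3 (r = 0.996). For Il1a they were Il1b, Nlrp3 (r = 0.996) and Ptgs2, the gene of the inducible cyclooxygenase (r = 0.994), and for Nlrp3 they were Traf1 (r = 0.996), Il1a and Il1b. Il1rn was most like Vma21 (r = 0.982), Pdgfb (r = 0.979) and Sertad2 (r = 0.979), and Casp4 most like Spryd7 (r = 0.970), Clec4e (r = 0.967) and Grap (r = 0.966). Il1rn and Il1b correlated at r = 0.764 over all 24 libraries and at r = 0.983 over the 21 libraries without LPS. Over those 21 libraries Il1rn correlated with Nlrp3 at r = 0.987 and with Il1a at r = 0.984. The values for Vma21, Pdgfb and Sertad2 were then 0.981, 0.990 and 0.983, so the order for Il1rn depends on the LPS libraries. The libraries fall into treatment groups that these values share, so the correlations are a description.

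The other receptors and ligands of the family were mostly low. Of a list of 15, 14 had an identifier and 8 were tested. Il1r1, the signalling receptor of both ligands, had group means between 0.595 and 0.860 CPM, and Il18r1 had 5 counts in all libraries together. LPS raised 2 of the 8, Il36a and Il36g, ligands of the IL-36 branch, where 13.8% of all tested genes rose. Il36g rose from 0.407 ± 0.13 to 5.16 ± 0.96 CPM (SD, n = 3), with a log2 fold change of 3.68 ± 0.31 (adjusted p = 1.55e-12), and stayed between 0.318 and 0.383 CPM in the other treatments' means. Il36a rose from 0.224 CPM to 2.74 CPM in LPS and to 1.35 CPM in (GT)6 SWCNT (adjusted p = 4.85e-05), from a control group with at most 7 counts in a library.

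The receptor genes Il1r2 and Il1rl1 rose a little in both nanotube groups and did not pass the test in LPS. Il1r2, a decoy receptor that binds interleukin-1 without signalling, had 7.15 ± 0.47 CPM in control, 9.53 ± 1.1 in (GT)6 SWCNT (log2 fold change 0.41 ± 0.11, adjusted p = 0.00644) and 9.16 ± 0.81 in carboxylated SWCNT (0.35 ± 0.11, adjusted p = 0.0192). Il1rl1, the receptor of interleukin-33, had 14.8 CPM in control, 19.7 in (GT)6 SWCNT (0.40 ± 0.09, adjusted p = 0.000671) and 17.8 in carboxylated SWCNT (0.27 ± 0.09, adjusted p = 0.0270). Both genes were also higher in each nanotube group than in LPS, where their means were 6.88 and 12.6 CPM. In carboxylated SWCNT the Il1r2 call was lost without control replicate 1 or 2 or carboxylated SWCNT replicate 2 (adjusted p up to 0.0929), and the Il1rl1 call without control replicate 1 or carboxylated SWCNT replicate 1 or 3 (adjusted p up to 0.107). Sigirr passed as lower in (GT)6 SWCNT and lost its call without any of the 6 libraries but control replicate 3 (adjusted p up to 0.212).

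Of 16 genes that carry the signal of the interleukin-1 receptor, all tested, LPS raised 8 and lowered 1, where 13.8% of all tested genes rose and 14.5% fell. (GT)6 SWCNT raised 4 and lowered 1, where 9.90% rose and 10.5% fell. Carboxylated SWCNT raised 2, near the 9.39% of all genes that rose. DiBASC2 lowered 3, Irak2, Chuk and Tollip, where 3.64% of all genes fell, and AAV raised 1, Tab3, near the 5.00% called in either direction. Irak2, a kinase-like protein of the receptor complex, went the way of the ligands: 56.7 ± 0.28 CPM in control, 146 ± 2.6 in LPS, 90.7 ± 4.1 in (GT)6 SWCNT, 78.2 ± 0.19 in carboxylated SWCNT and 48.5 ± 0.94 in DiBASC2 (SD, n = 3). All 4 differences from control passed the test, with log2 fold changes of 1.36, 0.68, 0.46 and -0.22. Peli1, a ubiquitin ligase of this pathway, rose by 1.10 ± 0.05 in LPS (adjusted p = 4.10e-20). Tollip, an inhibitor of the receptor kinases, had 101 CPM in control, 116 in LPS, 127 in (GT)6 SWCNT, 113 in carboxylated SWCNT and 89.3 in DiBASC2. Tab1, a partner of the kinase TAK1, fell by 0.46 on the log2 scale in LPS. Several smaller calls rested on single libraries. Those of Traf6 in LPS (without control replicate 3), Tab1 in (GT)6 SWCNT (control replicate 2) and Tollip in DiBASC2 (control replicate 1) were each lost without 1 library. That of Peli1 in (GT)6 SWCNT was lost without control replicate 2 or 3 or (GT)6 SWCNT replicate 1. The Chuk call in DiBASC2 was lost without any library but DiBASC2 replicate 2, and that of Tab3 in AAV without control replicate 1 or 3 or AAV replicate 2 or 3.

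Of 12 other inflammasome sensors, 9 were tested. (GT)6 SWCNT lowered 4 of them, where 10.5% of all tested genes fell. LPS and carboxylated SWCNT each lowered 1, near the 14.5% and 10.6% of all genes that fell. No sensor passed as higher in the 7 treatments, which for 9 genes is near the shares that rose (13.8% in LPS, 9.90% in (GT)6 SWCNT and 9.39% in carboxylated SWCNT). Nlrc4, which pairs with NAIP proteins to detect bacterial proteins, had 18.7 ± 0.97 CPM in control and 14.5 ± 1.4 in (GT)6 SWCNT (log2 fold change -0.38 ± 0.08, adjusted p = 0.000676). Aim2, a sensor of DNA in the cytosol, had 53.7 CPM in control, 45.9 in (GT)6 SWCNT and 46.2 in carboxylated SWCNT (-0.22 ± 0.05, adjusted p = 0.00287). Naip2 differed by -0.28 ± 0.06 in LPS and -0.26 ± 0.06 in (GT)6 SWCNT. Nlrp1b differed by -0.58 ± 0.18 in (GT)6 SWCNT and lost its call without control replicate 2 or 3 or (GT)6 SWCNT replicate 1 or 2 (adjusted p up to 0.122). The Naip and Nlrp1 genes are families of close copies, so the counting could have split or shared their reads.

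Of 16 regulators and effectors of inflammasomes, 15 were tested. LPS raised 3 and lowered 6, where 13.8% of all tested genes rose and 14.5% fell, so the 3 are near the share. (GT)6 SWCNT lowered 4 and carboxylated SWCNT 3, where 10.5% and 10.6% of all genes fell. Di2ANEPEQ lowered 1, where 3.08% were called in either direction. P2rx7, the ATP-gated channel that triggers NLRP3 in macrophages, had 59.0 ± 0.18 CPM in control, 39.7 ± 2.8 in LPS, 43.3 ± 0.69 in (GT)6 SWCNT and 53.3 ± 3.4 in carboxylated SWCNT (SD, n = 3). Its log2 fold change was -0.45 ± 0.05 in (GT)6 SWCNT (adjusted p = 2.29e-08) and -0.15 ± 0.05 in carboxylated SWCNT (adjusted p = 0.0401). The latter call was lost without any library but carboxylated SWCNT replicate 2 (adjusted p up to 0.347). Txnip, a thioredoxin-binding protein, fell by 1.21 on the log2 scale in LPS (from 225 to 97.5 CPM) and by 0.21 in Di2ANEPEQ (adjusted p = 0.000974). Gbp2, an interferon-induced GTPase, rose from 0.925 to 4.63 CPM in LPS. Gbp5 had a mean of 1.47 CPM in LPS and at most 3 counts in a control library, which allows no fold. Gbp genes are also close copies of each other. Pstpip1, an adaptor that binds pyrin, fell by 0.41 in (GT)6 SWCNT on the log2 scale. Of the small calls in LPS, that of Casp8 was lost without control replicate 1 or LPS replicate 1 or 2, that of Nek7 without control replicate 1 or 2 or LPS replicate 1 or 3, and that of Panx1 without any library but LPS replicate 2. Txnip in (GT)6 SWCNT lost its call without control replicate 3. In carboxylated SWCNT, Pstpip1 lost its call without control replicate 2 and Casp8 without control replicate 1 or 3 or carboxylated SWCNT replicate 1 or 3.

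In Fura-2, 0 of the 48 tested genes of these 4 lists passed in edgeR and 0 in DESeq2, and 2 had an unadjusted p under 0.05 (Aim2 and Mark4). Some of the listed genes overlap others on the genome, among them Irak2 with Gm43963 over 196 bases and Txnip with the antisense gene Gm15441 over 606 bases.

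**Figure D5:**
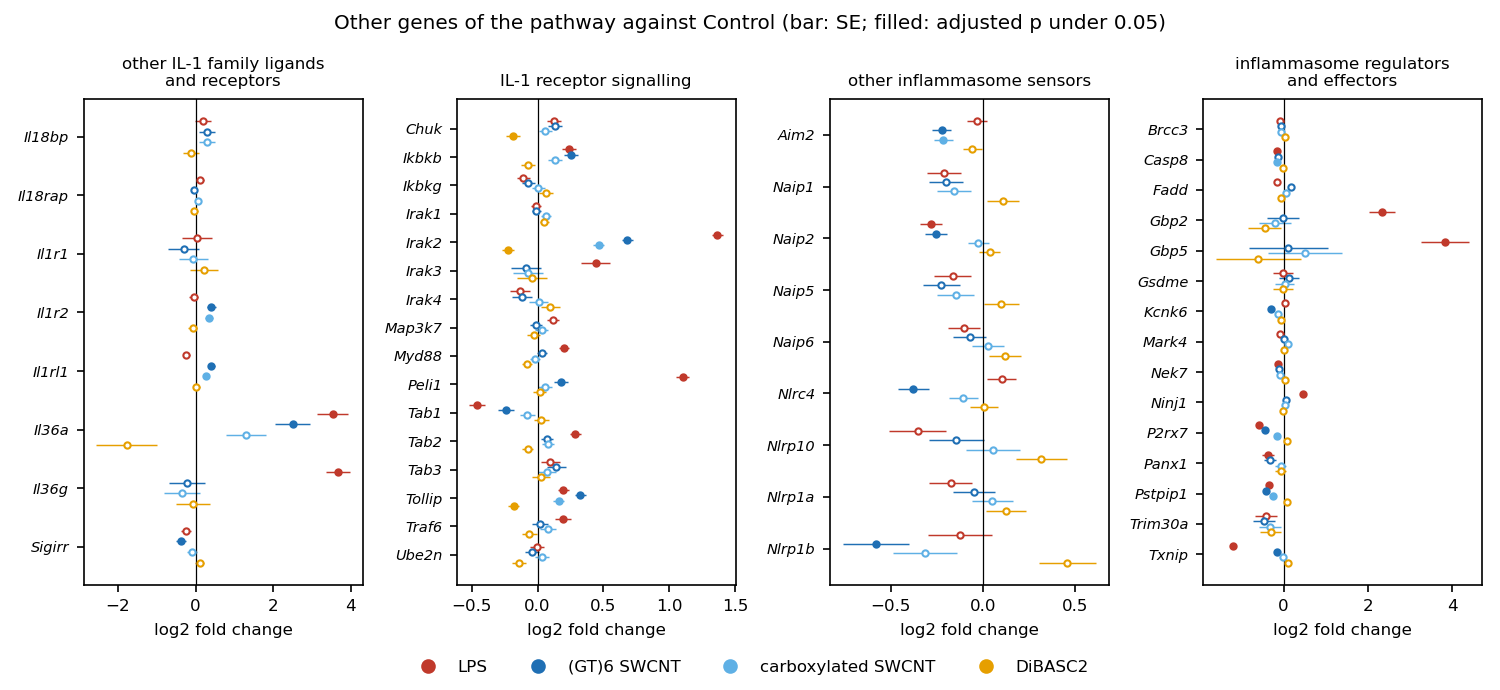
Log2 fold change against control (x axis) of the tested genes of 4 lists (y axis, a panel per list) in LPS, (GT)6 SWCNT, carboxylated SWCNT and DiBASC2 (colours), with the standard error as a bar and filled points where the adjusted p is under 0.05. Irak2 is filled in all 4 treatments, at 1.36, 0.68, 0.46 and -0.22, and no sensor gene has a filled point above 0.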

How the data were processed

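The authors deposited whole-number read counts for 54838 Ensembl gene identifiers of the mouse in 24 libraries, not normalized. The submitters' processing notes name STAR 2.5.4b and the build GRCm38.p6, without roles. The counting tool, strand setting and annotation release are not given in the sources used here. Symbols came from GENCODE M21, which matched 53947 identifiers with their version and 54809 without, and left 29 unmatched. The titles of the samples gave the groups and the replicate numbers. Other labels spell the dye names differently.

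Counts were analysed with edgeR 4.0.16 in R 4.3.3: filterByExpr, TMM factors and a quasi-likelihood fit with a mean per group over all 24 libraries and 16 residual degrees of freedom. The 10 contrasts were tested two-sided, and the threshold was an adjusted p under 0.05 (Benjamini-Hochberg, within a contrast). A standard error is the absolute log2 fold change over the square root of F. CPM use the TMM factors, and per-kilobase values divide by the union of a gene's exons. The biological coefficient of variation was 4.12%. Replicate pairs correlated at r from 0.992 to 0.995 and all differed by more than sampling noise (chi-square over degrees of freedom between 2.52 and 20.5), so each library counted once. Index numbers run in blocks of 3 per group, so library order and group cannot be told apart. On data simulated for LPS against control (12871 genes, 200 of them changed), 86% of genes changed 1.5-fold and 91% of those changed 2-fold were recovered, with 4.84% false calls.

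The genes, lists and tests were chosen with earlier results of these data known. Named pathway genes were up to 3 with the largest change among those called, per list and treatment, plus Il1r1, Il1r2, Il18r1 and Il1rl1. Named alike genes were the 3 with the highest r. Others, named for a small count or a lost call, were chosen after their values were seen. Il36a and Il36g were matched through RefSeq synonyms, and Il36rn was not analysed here. Alternatives were other scalings, filters, a replicate block, fits of 2 groups, DESeq2 1.42.0 and leaving out each library.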

Additional observations from a re-analysis of the deposited data

How the results depend on the processing

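No log2 fold change of the 9 genes that passed the test changed sign under an alternative. Signs of fold changes that did not pass were not counted. The other settings kept 612 of 630 values on their side of the threshold, and leaving out a library kept 517 of 540. Calls of Il1a, Il1b, Il1rn and Nlrp3 against control were never lost. The calls that were lost belong to Casp4, Casp1, Gsdmd and Il1rap, whose differences in those contrasts were between 0.16 and 0.31 in size on the log2 scale. Without 1 library, called genes among the 9 ranged from 5 to 6 in LPS, 4 to 5 in (GT)6 SWCNT, carboxylated SWCNT and DiBASC2, and 0 to 0 in Di2ANEPEQ, Fura-2 and AAV. They ranged from 6 to 7 for (GT)6 SWCNT against LPS, 4 to 6 for carboxylated SWCNT against LPS, and 5 to 6 between the nanotube groups. A fit of only the 2 groups called 1 gene, Casp4, in Di2ANEPEQ and 1, Casp4, in AAV (adjusted p = 0.0435). Without a low-count filter Fura-2 had 1, Il1rn, at -0.14 (adjusted p = 0.0434). The causes were not tested. Low counts limit what can be said of Il18, Il1r1 and Pycard.

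No pairing of the samples by replicate number was detected, which does not show that none exists. Deviations of same-numbered libraries correlated at a median r of 0.00197 over 84 pairs, against 0.00189 over 168 pairs with different numbers. With a replicate block, the fit called 6 genes in LPS, 5 in (GT)6 SWCNT, 4 in carboxylated SWCNT, 4 in DiBASC2, 0 in Di2ANEPEQ, Fura-2 and AAV, 7 and 6 for the nanotube groups against LPS, and 5 between them.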
